A study of Mus musculus with 11 samples.

Results

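The genes described here are 10 transcription factors that set or keep photoreceptor identity: Crx, Nrl, Nr2e3, Otx2, Rax, Rorb, Rxrg, Neurod1, Prdm1 and Mef2d. They were chosen by name, and all 10 were found among the 38393 genes listed in each library. RNA was sequenced from the whole eye of C57BL/6 mice (C57Bl/6J by the study's methods) aged 1 to 2 months after the lens and cornea had been taken out, so that retina, retinal pigment epithelium (RPE), choroid, sclera and ciliary body remained. The eyes came from 5 wild-type (WT) mice and 6 miR-211-/- mice, a knockout line in which a short stretch of genome holding the precursor of miR-211, a microRNA abundant in the eye, has been removed. By the study's methods all the miR-211-/- mice were male and the WT mice were of both sexes, so sex cannot be fully told apart from genotype. The Mir211 entry was at 0 counts in all 11 libraries of both genotypes, and in mRNA libraries it therefore checks nothing. Libraries held 20282241 to 36317673 read pairs assigned to genes.

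Photoreceptors are born from dividing retinal progenitors in which the homeodomain factor Rax is already active. Otx2 commits cells that have left the cell cycle to the photoreceptor lineage, and Prdm1 then holds back the bipolar cell programme that Otx2 also allows. Rorb, Nrl and Nr2e3 direct precursors to the rod fate, Rxrg and thyroid hormone receptors shape cone opsin expression, and Crx, Neurod1 and Mef2d act with these factors to drive the genes of the outer segment. Most of the factors stay active in the adult, where they keep rod and cone genes switched on.

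MiR-211-5p and its close relative miR-204-5p are shown first because the deleted microRNA is the variable of the study and shares its seed with a microRNA that the mutants still carry. The seed, bases 2 to 8 from the 5′ end, is in capitals. The sequences are from RefSeq on GRCm38.p6, miR-211-5p at chr7:64205831-64205852 and miR-204-5p at chr19:22750610-22750631, both on the plus strand.
mmu-miR-211-5p: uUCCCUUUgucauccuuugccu
mmu-miR-204-5p: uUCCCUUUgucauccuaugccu
Over their 22 bases they differed at 1, U17A (miR-211-5p first, counted from its 5′ end), which lies outside the seed. The complement of the seed, AAAGGGA, was searched for on the transcribed strand of the longest annotated 3′ UTR of each gene. It was found in 3 of the 10 factors, Rorb, Nrl and Rax, and in 16.6% of the 14511 tested genes that have an annotated 3′ UTR. The Rorb 3′ UTR, at 7275 bases against a median of 1210 bases over those genes, held 2 matches, at bases 4920 and 5922, of which the first is followed by an A. The Nrl 3′ UTR of 1577 bases held 1 match at base 791. The 3 stretches below show each match in capitals on the minus strand of GRCm38, where both genes are transcribed, at chr19:18932942-18932971, chr19:18931940-18931969 and chr14:55519746-55519775.
Rorb, first match: gtggaagcgccAAAGGGAactagatgtctt
Rorb, second match: gtacaactaagAAAGGGAcagggctatcaa
Nrl: aggactgtaccAAAGGGAcatcctgttctg
A match of these letters is a description of the sequence and no evidence of regulation, and neither Rorb nor Nrl passed the test between the genotypes.

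None of the 10 factors was called different between miR-211-/- and WT eyes. All 10 passed the filter on low counts (at least 1 read pair per 1000000, the unit CPM, in at least 5 libraries) and entered edgeR's likelihood ratio test with 15767 genes in all. None had an adjusted p under 0.1 and none an unadjusted p under 0.05, and the adjusted p of each was 0.999939 (Benjamini-Hochberg over all genes tested). The quasi-likelihood test of edgeR and DESeq2 also called 0 of the 10, with 0 at an unadjusted p under 0.05. The background was as low: 0.00634% of the genes tested, 1 gene, had an adjusted p under 0.1, and 2.09% had an unadjusted p under 0.05. Of the 10 factors, 9 had a fold change above 0 and 1 below it, and their median log2 fold change was 0.04. Over all tested genes 8054 lay above 0 and 7713 below it, and the median was 0.0027. The range of CPM of the miR-211-/- libraries overlapped that of WT for all 10. All 10 95% intervals contained 0, and 9 of them lay within 0.5 of it on the log2 scale, the exception being that of Rorb.

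**Figure D1:**
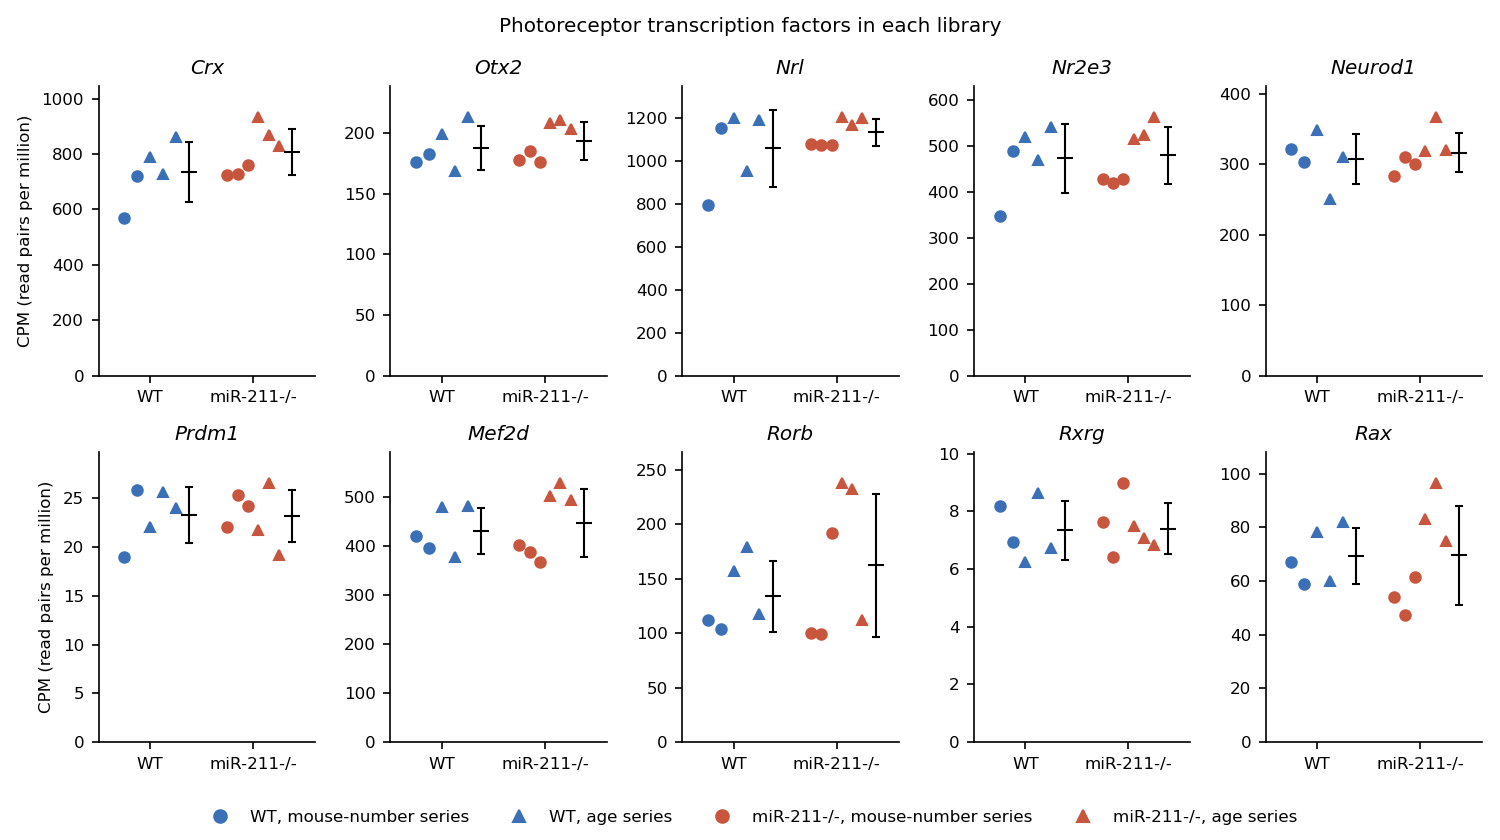
CPM of the 10 factors in each library, with WT in blue and miR-211-/- in red. Circles and triangles mark 2 series of libraries described in the text, the black dash and bar are the mean and SD of the genotype, and the miR-211-/- points overlap those of WT in every panel.

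Crx, the homeodomain factor that activates most rod and cone genes, stood at 569.9, 722, 790.3, 726 and 862 CPM in WT replicates 1 to 5. In the 6 miR-211-/- libraries its lowest value was 723, its median 795 and its highest 933 CPM. WT replicate 1 was the lowest library of all, 2 miR-211-/- libraries lay above the WT range and 4 within it. The log2 fold change was 0.14 with an SE of 0.17 and a 95% interval from -0.20 to 0.47. Otx2, the factor upstream of Crx, held 176, 183, 199, 168 and 213 CPM in the 5 WT libraries. Its lowest, median and highest values in miR-211-/- were 176, 194 and 210.4 CPM, so that all 6 libraries fell inside the WT range. The log2 fold change of Otx2 was 0.04 with an SE of 0.11 and an interval from -0.18 to 0.26. Over all 11 libraries Otx2 was the least scattered of the 10, with a coefficient of variation of 8.48%.

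Otx2 and Crx proteins bind the same letters, TAATCC, which read GGATTA on the other strand. The 250 bases before each RefSeq transcription start were searched on both strands, over 32851 starts of all genes and 14 starts of 9 of the factors. TAATCC was present before 6.25% of all starts, and before 2 of the 14, 1 of Crx and 1 of the 4 of Otx2. All 250 bases of that Otx2 window lay in annotated exons, against 13 of the Crx window. The Crx start held TAATCC 2 times, with the match beginning 94 and 21 bases before the start. That window, on the minus strand at chr7:15879956-15880205 of GRCm38.p6, is shown with both matches in capitals because Otx2 is known to act on the Crx promoter.
Crx: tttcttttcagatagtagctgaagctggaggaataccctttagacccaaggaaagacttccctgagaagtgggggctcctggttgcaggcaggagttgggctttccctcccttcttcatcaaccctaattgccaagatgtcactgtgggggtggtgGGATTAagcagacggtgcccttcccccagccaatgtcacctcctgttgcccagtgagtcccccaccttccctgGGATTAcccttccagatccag
The core of the Nrl site, TGCTGA or TCAGCA, stood before 1 start each of Neurod1, Mef2d, Otx2 and Rorb, against 16.1% of all starts. The E-box of Neurod1, CAGATG or CATCTG, stood before 1 start each of Otx2 and Nrl (14.4% of all), and the nuclear receptor core AGGTCA or TGACCT before 1 start of Rxrg (14.0% of all). No start of the factors held AAGTCA or TGACTT, a core given for Nr2e3 (13.1% of all), or the Mef2 site (3.20% of all). The letters are short, and a match or its lack in these windows says nothing of binding in these eyes.

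Nrl and Nr2e3 are the pair that makes a photoreceptor a rod, Nrl as the basic leucine zipper factor that turns on Nr2e3 and Nr2e3 as the orphan nuclear receptor that represses cone genes. Nrl stood at 796, 1152, 1201, 951 and 1191 CPM in the WT libraries. In miR-211-/- its lowest value was 1072, its median 1123 and its highest 1203 CPM, with 5 libraries inside the WT range and 1 just above it. The WT values were the more scattered, with a coefficient of variation of 16.8% against 5.62% in miR-211-/-, and the lowest were WT replicates 1 and 4. Its fold change was 0.10 on the log2 scale with an SE of 0.18 (interval -0.25 to 0.44). Nr2e3 stood at 347, 489, 518, 469 and 539 CPM in WT and at a lowest of 418, a median of 471 and a highest of 562 CPM in miR-211-/-. WT replicate 1 was again the lowest, and the highest miR-211-/- library was the only one above the WT range. The log2 fold change of Nr2e3 was 0.02 with an SE of 0.17 (interval -0.31 to 0.35).

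WT replicate 1 was the lowest library for Crx, Nrl and Nr2e3, and it held the highest summed level of the 10 skeletal muscle markers (11290 CPM, against 1138 to 11235 in the others) and of the 10 fat markers (736 CPM, against 33.7 to 457). It was also the lowest library for Prdm1 and for the summed bipolar (1134 CPM, against 1243 to 1501), amacrine and ganglion (629.7 CPM, against 709.9 to 1027) and Müller glia markers (2813 CPM, against 2961 to 3539), but it held the highest sum of the 10 cone genes (1493 CPM, against 1057 to 1298). That cone sum is open to the weight of 1 gene, Gnb3, the cone transducin beta subunit. In WT, Gnb3 had the highest mean and SD of the 10 cone genes (348 ± 172 CPM, SD). The next largest SD was 41.8 CPM, that of Opn1sw. The sum therefore does not show that the cone genes as a set were high in WT replicate 1. The part of other tissues' RNA in the low values of that library was not tested. Without that library the log2 fold changes were 0.06 for Crx, 0.01 for Nrl and -0.07 for Nr2e3, none of them called. In whole-eye RNA, fewer photoreceptors and less RNA per photoreceptor cannot be told apart.

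To set the factors against the amount of rod RNA in each eye, the log2 CPM of each was reduced by the mean log2 CPM of 13 rod genes (transducin, phosphodiesterase and channel subunits among them). Crx, Nrl and Nr2e3 themselves drive rod genes, so a change in them could move this scale too and be partly cancelled. For Rxrg the scale sets a factor of cones against rod RNA. The largest rod-scaled differences between miR-211-/- and WT were -0.13 for Rax, -0.11 for Prdm1 and 0.10 for Rorb. By the exact permutation test in both directions over all 462 splits of 5 and 6 libraries, whose smallest possible p is 0.00216, p ran from 0.253 for Nr2e3 to 0.831 for Nrl, and none of the 10 was under 0.05. Per unit of rod RNA, Nrl differed by 0.01, with means of -0.45 ± 0.10 (SD, n = 5) and -0.44 ± 0.08 (SD, n = 6). The rod genes themselves were called in 0 of 13 cases and their median on the log2 scale was 0.11, and Gngt1, the rod transducin gamma subunit, had the smallest p among them (0.23, unadjusted p = 0.164, adjusted p = 0.999939 by edgeR), followed by the channel subunit Cnga1 (0.11). The 10 cone genes were called in 0 cases with a median of 0.0021, led by Arr3, the cone arrestin (0.07), and Gnb3, the cone transducin beta subunit (-0.17), and no rod or cone gene had an unadjusted p under 0.05. Without WT replicate 1 the fold changes of the cone genes ran from -0.14 to 0.19, against -0.17 to 0.07 with it. No cone gene was then as low as the -0.17 of Gnb3, whose value thus depended on that library. The median without it was 0.03 for the cone genes and 0.02 for the rod genes.

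**Figure D2:**
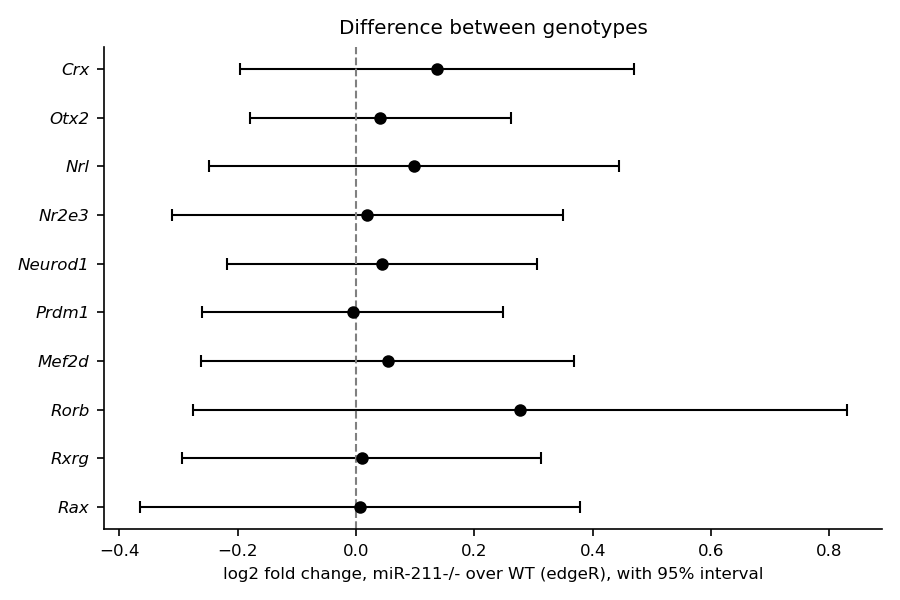
Log2 fold change of each factor, miR-211-/- over WT (horizontal axis), with its 95% interval from edgeR. Every interval crosses the dashed line at 0, and the widest is that of Rorb, from -0.28 to 0.83.

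Neurod1, a basic helix-loop-helix factor that adult photoreceptors need to survive, stood at 322, 303, 349.6, 252 and 311 CPM in WT. Its lowest, median and highest values in miR-211-/- were 284, 315 and 367 CPM, and 5 of the 6 libraries lay inside the WT range. On the log2 scale the fold change was 0.04 with an SE of 0.13 (interval -0.22 to 0.31). Mef2d, a MADS-box factor whose retinal form acts with Crx, stood at 419, 396, 478, 377 and 481 CPM in WT. In miR-211-/- it ran from 366 to 527 CPM with a median of 448. Both ends of the miR-211-/- range lay outside that of WT, with 3 libraries above it and 1 below, and the log2 fold change was 0.05 with an SE of 0.16 (interval -0.26 to 0.37).

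Prdm1, the zinc finger repressor that keeps precursors out of the bipolar fate, was low in these adult eyes. Its WT libraries held 18.9, 25.9, 22.1, 25.6 and 24.0 CPM, and the miR-211-/- libraries ran from 19.2 to 26.5 CPM with a median of 23.2. It was the only factor with a fold change below 0, by -0.01 with an SE of 0.13 (interval -0.26 to 0.25). Rxrg, the retinoid X receptor found in cones, was the lowest of the 10, with 8.19, 6.93, 6.26, 8.63 and 6.71 CPM in WT. Its miR-211-/- values ran from 6.40 to 8.98 CPM with a median of 7.29, and 5 of the 6 lay inside the WT range. The log2 fold change of Rxrg was 0.01 with an SE of 0.15 (interval -0.29 to 0.31), and even at this level the shallowest value rested on 145 read pairs.

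Rorb, the nuclear receptor that acts upstream of Nrl in rod precursors and also marks amacrine and horizontal cells, was the most scattered factor. WT replicates 1 to 5 held 112, 104, 157, 179 and 118 CPM. The miR-211-/- libraries held 99.7, 99.5, 192, 237, 232 and 112 CPM, a coefficient of variation of 40.7% against 24.2% in WT. Both genotypes contained libraries at 99.5 to 118 CPM (WT from 104) and libraries at 157 CPM or more, with none between, so that 3 miR-211-/- libraries lay above the WT range, 2 below and 1 within. The log2 fold change was 0.28 with an SE of 0.28 (interval -0.28 to 0.83, unadjusted p = 0.329), the largest of the 10 and not distinguishable from 0. It was 0.14 without miR-211-/- replicate 4 and 0.41 without WT replicate 4, with no adjusted p under 0.1 either way.

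Lens RNA was highest in a pair of libraries with high Rorb, at 94548 CPM over 12 lens genes in WT replicate 4 and 26328 CPM in miR-211-/- replicate 3. WT replicate 3 and miR-211-/- replicates 4 and 5, with 36.6 to 83.3 CPM of lens RNA, had high Rorb too. WT replicate 4 was also the lowest library for Otx2 (168 CPM), Neurod1 (252 CPM) and the summed cone genes (1057 CPM). Without it the log2 fold changes were 0.01 for Otx2 and -0.01 for Neurod1, neither called. The part of lens RNA in these values was not tested. The gene nearest to Rorb in its profile over the 11 libraries was the locus 4930481A15Rik and the next was Esrrb, the oestrogen-related receptor of rods (root mean square differences of 0.15 and 0.16 in centred log2 CPM, against 0.47 for Rorb about its own mean). Esrrb stood at 228, 191, 222, 333 and 189 CPM in WT, and at 193, 179.98, 330.5, 374, 345 and 203 CPM in miR-211-/- replicates 1 to 6. The 4 libraries with the highest Esrrb were also the 4 with the highest Rorb, and WT replicate 3 held 157 CPM of Rorb beside 222 CPM of Esrrb. Esrrb had a log2 fold change of 0.22 with an SE of 0.25 and was not called.

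**Figure D3:**
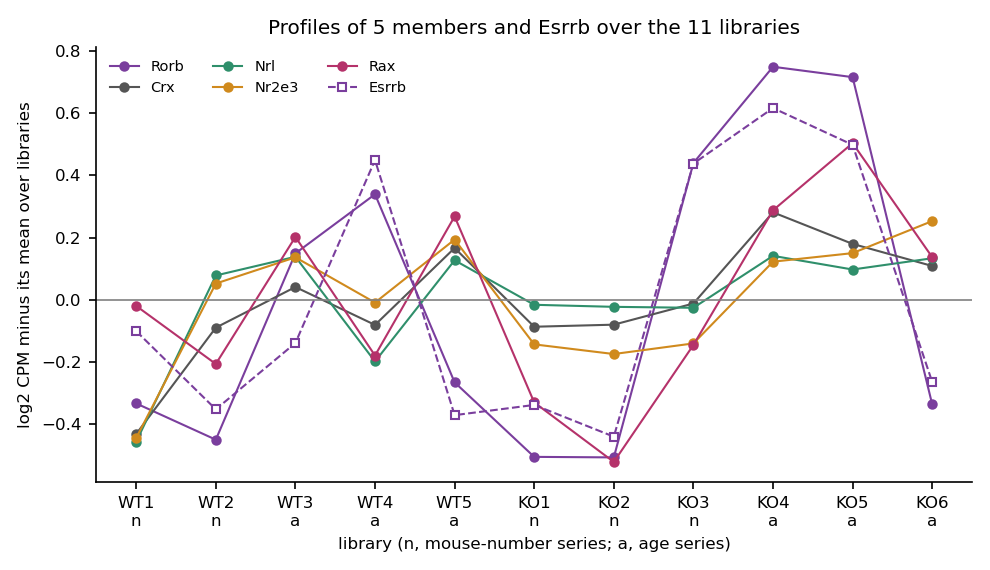
Log2 CPM of Rorb, Crx, Nrl, Nr2e3, Rax and Esrrb minus the mean of each over the 11 libraries (vertical axis), with lines that only join the points of 1 gene. Rorb and Esrrb are high in WT replicate 4 and miR-211-/- (KO) replicates 3, 4 and 5, while Crx, Nrl and Nr2e3 stay closer to their means except in WT replicate 1.

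Rax, which specifies the eye field and persists at a lower level in photoreceptors and Müller glia, held 67.1, 59.0, 78.3, 60.1 and 81.9 CPM in WT. Its miR-211-/- libraries ran from 47.4 to 96.4 CPM with a median of 68.2. Of these, 2 lay below the WT range, 2 above it and 2 within it, and the log2 fold change was 0.01 with an SE of 0.19 (interval -0.37 to 0.38). Rax overlaps Raxos1, a transcript of the other strand. Reads from any exon bases that they share cannot be told apart by strand, because the standard setting of RSEM uses none. Nr2e3, Neurod1, Mef2d and Otx2 also each overlap 1 gene of the opposite strand in the reference annotation. These overlaps are of whole genes with their introns, and shared exon bases were not checked. The genes overlapping on either strand reached at most 500 counts in a library for Rax, 64 for Nr2e3, 812 for Neurod1 and 209 for Mef2d. Those of Otx2 were not among the genes listed.

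Rax showed a difference of another kind. The study's own gene table names its libraries either by mouse numbers or by ages, and every library could be matched to 1 of those columns, which gave 2 WT and 3 miR-211-/- libraries in the mouse-number series and 3 of each genotype in the age series. What the series stand for beyond their names is not given. With genotype kept in the model, a comparison chosen after the data had been seen, 3 of the 10 factors were called between the series, all lower in the mouse-number series. Of all genes tested 36.3% were called, counting both directions, so that with direction left aside the share is near the background. Of those 5729 genes, 3420 were higher in the mouse-number series and the rest lower. Rax was lower by -0.45 (adjusted p = 0.0053 by edgeR), with 47.4 to 67.1 CPM in the mouse-number series and 60.1 to 96.4 CPM in the age series. Rorb was lower by -0.53 (adjusted p = 0.0827) and Nr2e3 by -0.31 (adjusted p = 0.0991), Nr2e3 with 347 to 489 CPM against 469 to 562 CPM. The ranges of the series overlapped for these 3 factors.

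The summed muscle markers moved with the series, at 2565 to 11290 CPM in the mouse-number series against 1138 to 6578 CPM in the age series, and 10 of 10 muscle, 9 of 9 fat and 6 of 8 cornea and conjunctiva markers were called higher in the former. Called lower there, as were Rax, Rorb and Nr2e3, were 8 of 10 amacrine and ganglion markers (median -0.36), 8 of 14 partners and co-regulators (median -0.28) and 2 of 13 rod genes (median -0.20), beside a median of -0.22 for the 10 factors. The background for these counts is the 5729 of 15767 tested genes that were called, 3420 of them higher there and the rest lower. The part of muscle, fat, cornea and conjunctiva in the lower values of the factors was not tested. Within the mouse-number series the log2 fold change of Rax between genotypes was -0.21 and within the age series 0.21, and the difference between these effects was -0.42 in an interaction fit (unadjusted p = 0.0871, adjusted p = 0.999578 by edgeR). No factor had an interaction adjusted p under 0.1, and 3 of 15767 genes did. For Crx the genotype log2 fold changes were 0.19 and 0.15 in the mouse-number and age series, for Nrl 0.14 and 0.10, and for Rorb 0.27 and 0.37, none called.

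Levels can be compared between genes only per length, for which the deposited FPKM (fragments scaled by transcript length and library size) served. Nrl was the highest factor, with a median of 596 FPKM over the 11 libraries (418 to 659), above 99.7% of the tested genes. Crx followed at 269.99 and Nr2e3 at 265 FPKM, and these neighbours were not separated, since Crx exceeded Nr2e3 in 9 of the 11 libraries. Neurod1 at 118, Mef2d at 106 and Otx2 at 102 FPKM formed a close group with overlapping ranges, in which Neurod1 exceeded Mef2d in 8 libraries and Mef2d exceeded Otx2 in 7.

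Rax stood lower, at 41.4 FPKM, and Rorb at 14.4, with Rax above Rorb in all 11 libraries, by 1.64-fold at the least, though their ranges over libraries overlapped. Prdm1 at 4.65 and Rxrg at 4.04 FPKM were at the bottom, above 30.7% and 27.9% of the tested genes, and Prdm1 exceeded Rxrg in 9 libraries. Nrl exceeded Crx in every library, by 1.86-fold to 2.35-fold. Apart from exchanges within Crx and Nr2e3, within Neurod1, Mef2d and Otx2 and within Prdm1 and Rxrg, each factor held its place in all 11 libraries.

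**Figure D4:**
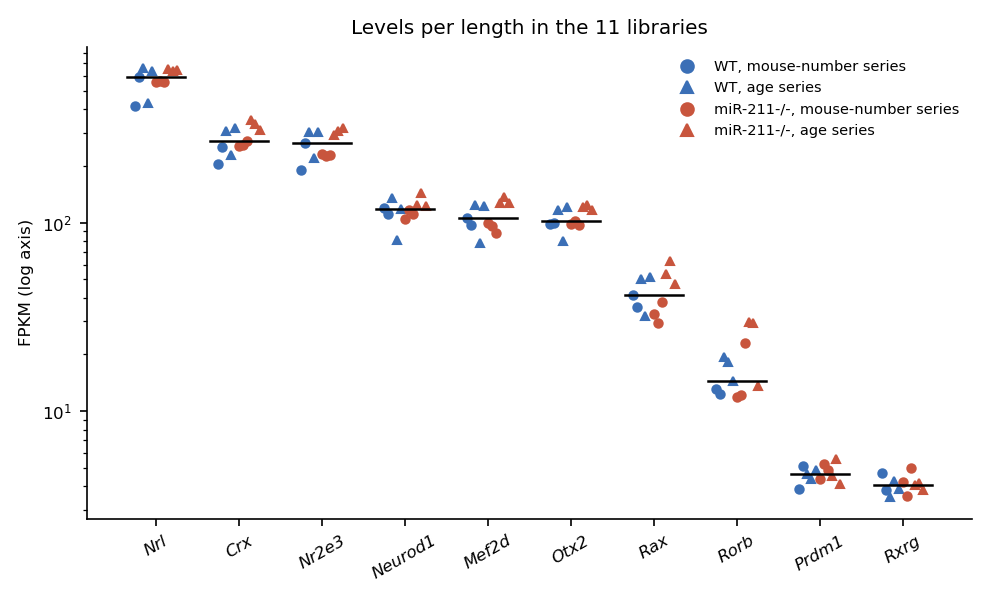
FPKM of the 10 factors (log axis) in the 11 libraries, ordered by median, which the black bars mark. The medians run from 596 FPKM for Nrl to 4.04 FPKM for Rxrg, and WT and miR-211-/- points lie among each other at each place.

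Among the factors the profiles over libraries that lay nearest to each other were those of Otx2 and Mef2d (root mean square difference of 0.09 in centred log2 CPM) and of Crx and Nrl (0.09), and the pair farthest apart was Nrl and Rorb (0.47). These are descriptions over 11 libraries that share their scaling and their tissue make-up. The ratio of each pair of factors was compared between the genotypes for all 45 pairs by the same exact permutation test in both directions, and 0 had p under 0.05. The smallest was that of Crx to Nr2e3, whose log2 ratio was 0.12 higher in miR-211-/- (exact p = 0.0606). By the same measure the genes nearest to the other factors were Dbndd1 and Chst10 for Crx, Rdh12 and Rgs9bp for Nrl, Agpat3 and Slc16a6 for Nr2e3, Icmt and B4galt2 for Otx2, and Lrrc24 and Asic3 for Rax. They were Fmnl3 and Ccdc61 for Rxrg, Sox12 and Synpr for Neurod1, Pdk1 and Lgi1 for Prdm1, and Phf21b and Tle1 for Mef2d, all at differences of 0.03 to 0.09.

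The factors that work with these 10 were not called either. The 14 partners and co-regulators, such as the thyroid hormone receptor Thrb, the rod repressors Samd7 and Samd11 and the SUMO ligase Pias3, were all tested. By the likelihood ratio test 0 were called, 0 had an unadjusted p under 0.05, 11 had a fold change above 0 and the median was 0.04. The quasi-likelihood test and DESeq2 also called 0, but each gave 1 of the 14 an unadjusted p under 0.05, higher in miR-211-/-. In the likelihood ratio test the smallest p was that of Atxn7, a subunit of a histone-modifying complex that Crx recruits. Atxn7 stood at 58.5 ± 3.69 CPM in WT (SD, n = 5) and 64.6 ± 2.25 CPM in miR-211-/- (SD, n = 6). Its log2 fold change was 0.14 with an unadjusted p of 0.0877 by edgeR, and that of Nr1d2, a nuclear receptor of the clock, was 0.13. Among 14 paralogs of the factors 12 were tested, 0 called and 0 at an unadjusted p under 0.05, with a median of -0.07, Mef2b and Neurod6 being too low to test. Maf, a relative of Nrl that lens also expresses, had a log2 fold change of -0.45 (unadjusted p = 0.231 by edgeR).

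Of 17 progenitor and early fate factors 15 were tested, 0 called and 0 at an unadjusted p under 0.05, with a median of 0.05. Notch1, the receptor that keeps progenitors dividing, had -0.15 and its target Hes5 0.26. Atoh7 and Foxn4, which act in embryonic progenitors, reached at most 0.129 CPM in any library and were not tested. Pax6, which adult inner retinal cells keep, stood at 365 CPM in WT.

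The tissue around the factors was checked with markers. Rod genes summed to 31671 to 49184 CPM and RPE genes to 2214 to 2847 CPM in every library, with no marker of either list at 0 throughout a genotype. Lens RNA, from a tissue that had been removed, was at 83.3 CPM or less in 8 libraries, at 3479 in miR-211-/- replicate 6 and highest in the pair named above. Of the tested markers of these other tissues, all 10 of muscle, 9 of fat and 10 of lens and 5 of 8 of cornea and conjunctiva had fold changes below 0 in miR-211-/-, none of them called and 2 of fat and 2 of lens at an unadjusted p under 0.05. The values of lens and of cornea and conjunctiva rested on single libraries, and those of fat and muscle varied in size with single libraries. Without WT replicate 4 all 10 lens markers lay above 0 (median 7.17, against -2.19 with it, 10 at an unadjusted p under 0.05), as they did in the mouse-number series alone (median 8.06). Without WT replicate 1 all 8 cornea and conjunctiva markers lay above 0 (median 0.19, against -0.22 with it). Fat markers were called in 4 of 9 cases, all lower in miR-211-/-, without miR-211-/- replicate 1 (median -3.75, against -1.94 with it) and again in 4 of 9 under the replicate block, and their median was -1.21 without WT replicate 1. The muscle median of -0.56 was -1.07 without miR-211-/- replicate 1 and -0.26 without WT replicate 1, where 1 of the 10 lay above 0. With the series as a covariate all 9 fat (median -2.38) and all 10 muscle markers (median -0.72) lay below 0. So did all 10 of lens and all 8 of cornea and conjunctiva. Unadjusted p was then under 0.05 by edgeR for 8 of fat and 0 of the other 3 lists, with none called.

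With all 11 libraries, the muscle genes with the smallest p were Myh2 (-0.53) and Acta1 (-0.57), the fat genes Retn (-0.87) and Cfd (-2.12), the lens genes Bfsp1 (-3.99) and Bfsp2 (-2.92), and the surface keratins Krt15 (-0.59) and Krt14 (-0.69). Those of the lens genes turned above 0 without WT replicate 4 and those of the keratins without WT replicate 1.

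None of the other retinal cell lists held a gene called or at an unadjusted p under 0.05 by edgeR, with 0 of 10 bipolar markers (Grik1 0.14, Pcp2 0.14), 0 of 10 amacrine and ganglion markers (Tfap2b 0.14, Tfap2a 0.13), 0 of 7 Müller glia markers (Abca8a 0.08, Dkk3 -0.05) and 0 of 9 tested RPE markers (Tyr -0.15, Rlbp1 0.13). The bipolar median of 0.08 and the amacrine and ganglion median of 0.13 lay beside the 0.04 of the 10 photoreceptor factors. Without WT replicate 1 the medians were 0.03 for bipolar markers, 0.02 for amacrine and ganglion markers and 0.03 for the 10 factors.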

How the data were processed

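Whole-eye RNA of 5 WT and 6 miR-211-/- mice was sequenced as paired reads by the authors, who estimated gene abundances with RSEM 1.2.19 against Gencode mouse transcripts and deposited expected counts and FPKM for each library. RSEM was run with its standard settings, which use no strand. Expected counts were rounded, genes were kept where 5 libraries or more reached 1 CPM, and libraries were scaled by TMM. Genotypes were compared with the likelihood ratio test of edgeR 4.0.16 in R 4.3.3, with Benjamini-Hochberg adjustment over all 15767 genes and a threshold of 0.1. The generalized linear model, filter and threshold follow the study's methods. Log2 CPM used a prior count of 2. Intervals are 1.96 SE on either side, the deposited FPKM served for levels only, and single values were compared by exact permutation in Python 3.11.15. The scripts were tested on simulated data. Groups came from the sample labels. The labels call the libraries replicates and name no animal, so p-values measure the spread between these libraries. No 2 libraries agreed within sampling noise, the mean chi-square per gene being 11.0 or more. The members and lists were chosen with earlier results of these data known. Named genes were all members, from each other list any gene called and the 2 with the smallest p, and the 2 nearest profiles of each member. Not every gene that this rule names is reported here. Symbols came from the reference annotation for 36639 of 38393 identifiers, and starts and microRNAs from RefSeq on GRCm38.p6. Quasi-likelihood, DESeq2 1.42.0, other scaling and filtering, a replicate block, a term for the library series and fits without each library in turn were tried.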

Additional observations from a re-analysis of the deposited data

How the results depend on the processing

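No factor was called under any alternative, in 190 member fits and, for the rod-scaled differences, 150 values of which 0 had an exact p under 0.05. The median log2 fold change of the 10 factors ran from 0.0076 to 0.0816 without each library in turn, within 1 SD (0.143) of that between libraries, as it did in the other settings (0.0198 to 0.124). The number of genes called among all those tested was 0 by the quasi-likelihood test (446 at an unadjusted p under 0.05), 2 by DESeq2, 2 with at least 1 count in any library, 10 with the series as a covariate, and 1 to 11 without 1 library, the highest without miR-211-/- replicate 1. In fits chosen after seeing the data it was 2 in the mouse-number series alone and 37 in the age series alone. The cause was not tested. None of these genes was among the 10 factors, and 4 of the 11 without miR-211-/- replicate 1 and 1 of the 37 were listed fat markers.

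With the replicate number as a block, without miR-211-/- replicate 6, 10 genes were called, 4 of them listed fat markers (lowest adjusted p = 7.81e-06 by edgeR) and none of them a factor, and Nr2e3 (-0.023), Rax (-0.054) and Prdm1 (0.046) changed sign. Deviations of same-numbered libraries correlated at 0.537, 0.633, -0.332, -0.258 and 0.534, so the numbers were not taken as pairs. Other uncalled fold changes that changed sign were those of Prdm1 without TMM factors (0.046, where all 10 factors and the median of all genes, 0.05, lay above 0) and in the mouse-number series alone (0.095), of Rax (-0.21), Neurod1 (-0.067) and Mef2d (-0.082) in that series, and of Rxrg in the age series alone (-0.0032). Without each library in turn, Nr2e3 ran from -0.074 to 0.071, Rax from -0.11 to 0.095, Rxrg from -0.052 to 0.081, Neurod1 from -0.011 to 0.094, Prdm1 from -0.072 to 0.043 and Mef2d from -4.67e-05 to 0.10. Rod-scaled differences then ran from -0.021 to 0.044 for Nrl, -0.015 to 0.24 for Rorb, -0.18 to 0.021 for Rxrg, -0.10 to 0.030 for Neurod1 and -0.092 to 0.0038 for Mef2d. What these 11 libraries could show differed by gene, from an interval of -0.18 to 0.26 for Otx2 to one of -0.28 to 0.83 for Rorb. Changes inside the interval of a factor remained compatible with these data, and 0 was among them for all 10.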
